A study of Homo sapiens with 8 samples.

Results

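The genes described here are 10 genes of the G1 phase of the cell cycle: the kinases CDK4 and CDK6, the D-type cyclins CCND1, CCND2 and CCND3, the E-type cyclins CCNE1 and CCNE2, the inhibitors CDKN1B and CDKN2A, and RB1. They were chosen by name from 18417 genes named on the array. Each of the 10 genes had 1 probe set among the table's 33297. Transcript levels were measured in LNCaP, an established prostate cancer line that responds to androgen, and in DU145, an established prostate cancer line that grows without it. Each line was transfected with an siRNA against TET2 (siTET2), with the microRNA miR-29b, with a control siRNA (siControl) or with a negative control miRNA (nc), and RNA was taken 72 hours later. All cells grew in RPMI medium with serum, and there was 1 array per line and construct, 8 in all, with 1 siRNA construct against TET2. A difference within a line is therefore the difference between 2 arrays and has no p-value, and only an effect common to both lines could be tested.

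In G1, D-type cyclins bind CDK4 or CDK6 and the complex phosphorylates the retinoblastoma protein, the product of RB1. Phosphorylated RB protein releases E2F transcription factors, which switch on genes of DNA synthesis, among them the E-type cyclins that activate CDK2. CDKN2A encodes p16, which blocks CDK4 and CDK6, and from another reading frame p14ARF, which stabilises p53, while CDKN1B encodes p27, which blocks CDK2 bound to cyclin E. CDK6 and the D-type cyclin CCND2 are known targets of the miR-29 family in other cell types. DU145 is known to lack functional RB protein, whereas LNCaP keeps it.

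The treatment was a member of the miR-29 family, whose seed (the bases that pair with a target RNA) is shared by all its members. The mature sequences are shown with the seed, bases 2 to 8, in capitals, from RefSeq (GRCh38.p14).
hsa-miR-29b-3p: uAGCACCAuuugaaaucaguguu
hsa-miR-29a-3p: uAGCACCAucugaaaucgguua
hsa-miR-29c-3p: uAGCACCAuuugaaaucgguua
The miR-29b sequence is encoded at chr7:130877467-130877489 and at chr1:207802450-207802472, both on the minus strand. The labels do not say which arm was transfected; the 3p arm is the one that carries the family seed.

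The siTET2 and cell line labels were checked against TET2 and line markers; no such check was made of the miR-29b, nc and siControl labels. TET2 was at a log2 value of 7.89 with siTET2, against 9.01 with siControl in LNCaP, and at 6.60 with siTET2, against 7.85 with siControl in DU145. Its effect common to both lines was -1.18 (SE 0.124, limma adjusted p = 0.0178). Of 12 markers of DU145, 11 exceeded the array's median in DU145 and 1 in LNCaP. For 6 measured markers of LNCaP the counts were 1 in DU145 and 5 or 6 in LNCaP. Markers of immune cells (1 of 11 in every array) and of fibroblasts (0 to 2 of 10) rarely exceeded it. The array medians over all probe sets were 7.10 to 7.17 in LNCaP and 6.59 to 6.66 in DU145, so the lines are set side by side only by the percentile of a gene among the named genes of its own array.

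Each array averages over all cells of a dish, so a smaller share of cells in G1 and less RNA per cell cannot be told apart. Most of the G1 genes lay well inside the expressed range in both lines. CDK4, CCND1, CCND3, CCNE1, CCNE2, CDKN1B, CDKN2A and RB1 lay above the median of the named genes in all 8 arrays. CDK4 stood at percentiles 97.0 to 98.0 in DU145 and 98.9 to 99.2 in LNCaP, and CCND1 at 94.3 to 96.1 in DU145 and 93.1 to 95.1 in LNCaP. CCND2 stood low in both lines, at percentiles 20.6 to 21.8 in DU145 and 20.4 to 24.3 in LNCaP.

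The 2 genes placed most differently in the lines were CDK6 and CDKN2A. CDK6 stood at percentiles 48.7 to 69.1 in DU145 and at 14.8 to 21.0 in LNCaP. CDKN2A stood at 92.0 to 92.8 in DU145 and at 62.0 to 65.9 in LNCaP. The ranges of the lines did not overlap for either gene, nor did they for CDK4, CCND3 and CCNE1. The share of all named genes without overlap was not computed, so nothing particular to these genes is read from it. The levels of CCND3 and CCNE1 were placed lower in DU145 (78.9 to 83.6 and 65.01 to 67.25) than in LNCaP (86.7 to 91.8 and 70.85 to 76.55). RB1 stood at 87.1 to 89.8 in DU145 and at 84.3 to 87.8 in LNCaP, and these ranges overlapped. These places were not tested, since the scale of the arrays may differ between the lines.

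**Figure D1:**
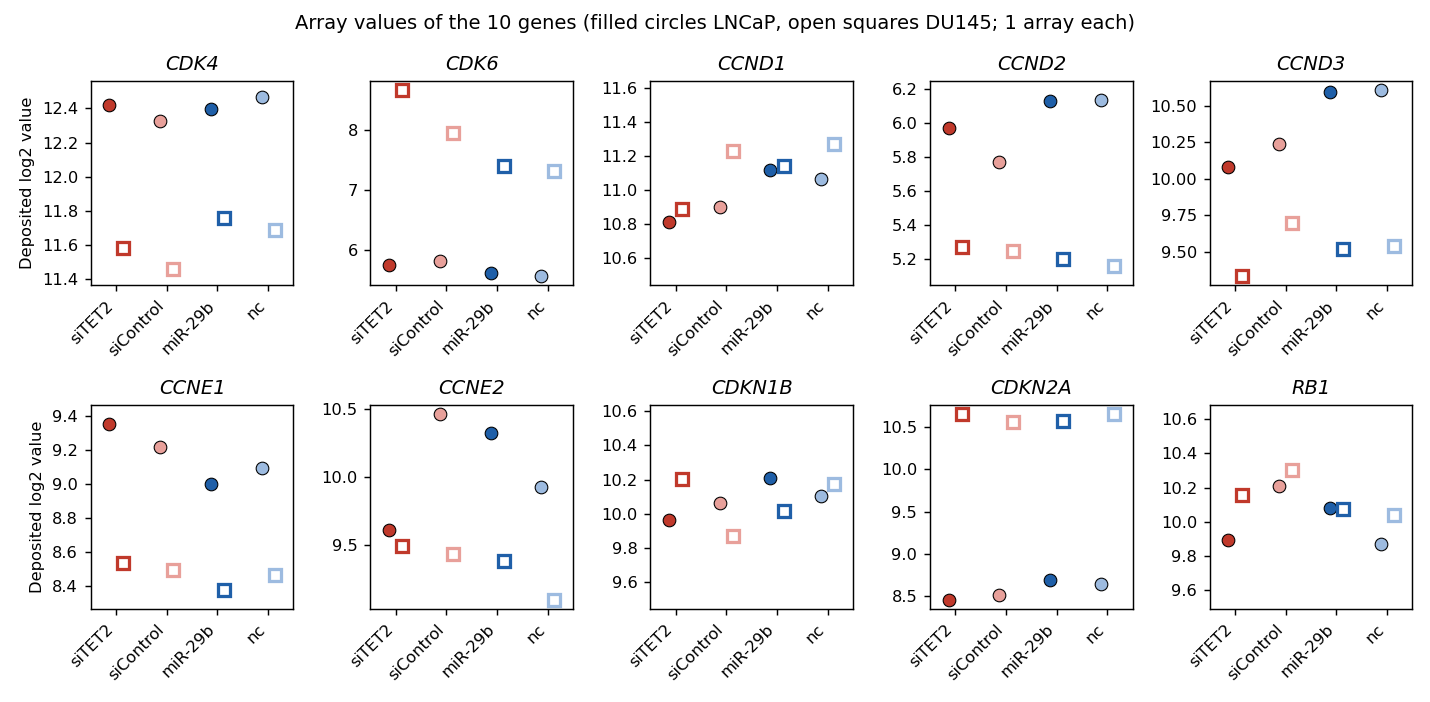
Deposited log2 values of the 10 genes (vertical axes, scaled per gene) for the 4 constructs (horizontal axes), with filled circles for LNCaP and open squares for DU145, 1 array each. CDK6 in DU145 lies between 7.31 and 8.66, highest with siTET2, and CCNE2 in LNCaP lies between 9.61 and 10.46, lowest with siTET2.

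CDK6, the kinase partner of the D-type cyclins beside CDK4, gave the widest spread of any of the 10 genes within a line. In DU145 its log2 value was 8.66 with siTET2, against 7.95 with siControl, and 7.39 with miR-29b, against 7.31 with nc. Both siRNA arrays lay above both miRNA arrays. The siTET2 difference was 0.71, or 1.63-fold, from siControl and 1.34 from nc, and the control arrays themselves differed by 0.63 (siControl minus nc), or 1.55-fold. Of 9374 genes above the level floor, 0.245% lay at least as far apart between the control arrays of DU145 as CDK6. A gene was above the floor where at least 1 of the 2 arrays had it at or above the median of its named genes, and CDK6 entered the control pair only through its siControl value. In LNCaP CDK6 lay below the floor in every array, at 5.75 with siTET2 and 5.61 with miR-29b, against 5.81 with siControl and 5.56 with nc. Its values there spanned 0.25.

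The 250 bases before the start of CDK6 are shown because TET2, the enzyme the siRNA addresses, acts on methylated cytosine, which in human somatic cells lies mostly in CG pairs. No methylation was measured. Capitals mark the CG pairs, on the minus strand at chr7:92836574-92836823 (RefSeq, GRCh38.p14).
CDK6: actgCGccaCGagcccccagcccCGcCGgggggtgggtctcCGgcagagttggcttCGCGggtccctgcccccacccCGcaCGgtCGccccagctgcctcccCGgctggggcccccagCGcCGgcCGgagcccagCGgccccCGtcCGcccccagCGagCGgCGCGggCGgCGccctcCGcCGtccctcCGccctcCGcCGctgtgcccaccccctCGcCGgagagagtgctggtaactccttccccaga
The window holds 30 CG pairs, where the median over 27305 promoter windows was 11 and 12.2% held at least as many. The other members with a window at the gene's start were CCNE1 with 39, CDKN1B with 27, CDKN2A with 24 and CDK4 with 19 CG pairs. None of these 5 windows held the E2F-like words TTTCCCGC, TTTCGCGC, TTTGCCGC or TTTGGCGC on either strand, which 2.79% of all windows held. At so low a share, finding none in 5 windows was likely for any genes. CCNE2 had no window, and sites outside the 250 bases were not searched, so no lack of E2F sites is read from this.

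CDK4, the other kinase of cyclin D, ranged over 0.14 in LNCaP and 0.30 in DU145. It was at 12.42 with siTET2 and 12.39 with miR-29b, against 12.32 with siControl and 12.47 with nc in LNCaP. The DU145 values were 11.58 with siTET2 and 11.75 with miR-29b, against 11.46 with siControl and 11.68 with nc. The siTET2 value lay between the control arrays in both lines. The miR-29b value did so in LNCaP, but in DU145 it lay 0.07 above nc and 0.30 above siControl.

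Among the D-type cyclins, CCND1 and CCND3 were lowest with siTET2 in both lines. CCND1, a cyclin gene often amplified in solid tumours, was at 10.81 with siTET2 and 11.12 with miR-29b, against 10.90 with siControl and 11.07 with nc in LNCaP. DU145 gave 10.89 with siTET2 and 11.14 with miR-29b, against 11.23 with siControl and 11.27 with nc. The siTET2 differences from siControl were -0.09 in LNCaP and -0.34 in DU145, and those from nc were -0.26 and -0.38.

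CCND3, another D-type cyclin, was at 10.08 with siTET2 and 10.60 with miR-29b, against 10.24 with siControl and 10.61 with nc in LNCaP. The values in DU145 were 9.33 with siTET2 and 9.52 with miR-29b, against 9.70 with siControl and 9.54 with nc. In LNCaP both siRNA arrays lay below both miRNA arrays, and the control arrays differed by -0.37 (siControl minus nc), more than siTET2 differed from siControl (-0.15). In DU145 the siTET2 difference from siControl was -0.37. CCND2, a D-type cyclin known as a miR-29 target, was below the level floor in all arrays, at 5.97 with siTET2 and 6.13 with miR-29b, against 5.77 with siControl and 6.13 with nc in LNCaP. In DU145 all 4 of its values lay between 5.16 and 5.27.

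CCNE2, an E-type cyclin that E2F factors switch on, gave the largest difference of the 10 genes in LNCaP. It was at 9.61 with siTET2 and 10.32 with miR-29b, against 10.46 with siControl and 9.93 with nc. The siTET2 array was the lowest of the line, -0.85 or 1.81-fold below siControl and -0.32 below nc. Of 9422 genes above the floor, 0.446% lay at least as far from siControl in either direction. The control arrays differed by 0.54 in CCNE2 (siControl minus nc). In DU145 the gene was at 9.50 with siTET2 and 9.38 with miR-29b, against 9.44 with siControl and 9.10 with nc. There the nc array was lowest, and the gaps between the other arrays in order of level were 0.05 and 0.06.

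CCNE1, the other E-type cyclin, followed another order. It was at 9.35 with siTET2 and 9.0 with miR-29b, against 9.22 with siControl and 9.10 with nc in LNCaP. The DU145 arrays gave 8.54 with siTET2 and 8.38 with miR-29b, against 8.49 with siControl and 8.47 with nc. In both lines siTET2 was the highest array and miR-29b the lowest, over a range of 0.35 in LNCaP and 0.16 in DU145.

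Within a line the values of the 2 inhibitors ranged over at most 0.34. CDKN1B, which encodes p27, was at 9.96 with siTET2 and 10.21 with miR-29b, against 10.06 with siControl and 10.10 with nc in LNCaP. In DU145 it was at 10.21 with siTET2 and 10.02 with miR-29b, against 9.87 with siControl and 10.18 with nc. The siTET2 array of DU145 lay 0.34 above siControl but 0.03 above nc. CDKN2A was at 8.45 with siTET2 and 8.69 with miR-29b, against 8.51 with siControl and 8.64 with nc in LNCaP, and its 4 values in DU145 lay between 10.57 and 10.66. With 1 probe set for the gene, transcripts of p16 and p14ARF cannot be told apart here.

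RB1, the brake on E2F factors, was at 9.89 with siTET2 and 10.08 with miR-29b, against 10.21 with siControl and 9.87 with nc in LNCaP. In DU145 it was at 10.16 with siTET2 and 10.08 with miR-29b, against 10.30 with siControl and 10.04 with nc. In both lines siControl was the highest array and nc the lowest, and the siTET2 value lay between them. The siTET2 difference was -0.31 in LNCaP and -0.15 in DU145 from siControl, and 0.03 and 0.12 from nc.

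**Figure D2:**
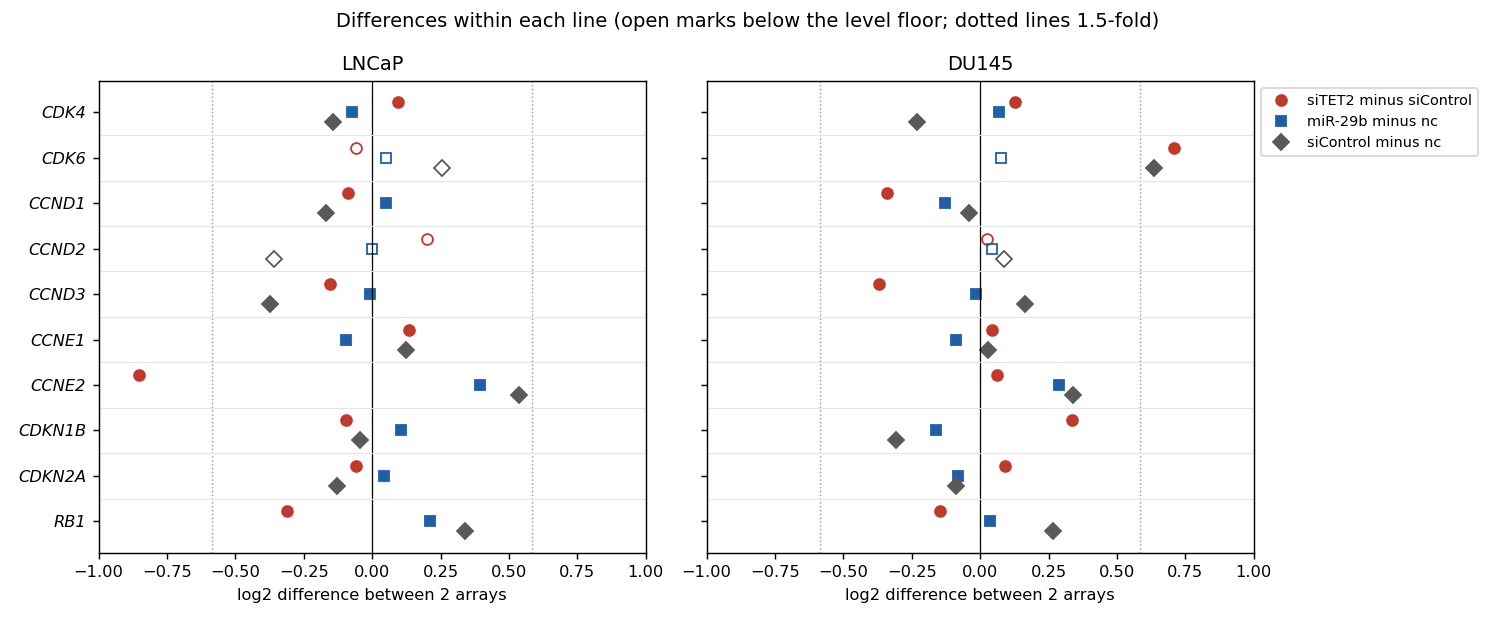
Log2 differences of the 10 genes between 2 arrays of a line (horizontal axis) for siTET2 minus siControl, miR-29b minus nc and siControl minus nc, with LNCaP left and DU145 right; open marks are genes below the level floor and dotted lines mark 1.5-fold. CCNE2 with siTET2 in LNCaP (-0.85), and CDK6 with siTET2 (0.71) and with siControl (0.63) in DU145, lie outside the dotted lines.

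Counted at a difference of at least 1.5-fold, 1 of 8 genes above the floor (CCNE2) differed between siTET2 and siControl in LNCaP, where 2.75% of all 9422 genes did. In DU145 it was 1 of 9 (CDK6), where 2.55% of 9424 genes did. With miR-29b, 0 of 8 differed by that much from nc in LNCaP and 0 of 8 in DU145, where 0.847% and 0.117% of all genes did. Between the control arrays 0 of 8 differed in LNCaP and 1 of 9 in DU145 (CDK6), where 2.31% and 0.341% of all genes did. CDK6 passed the floor of that pair only through siControl, the array where it was higher, so nothing is read from that count. The siTET2 comparison and the control pair share the siControl array of the line. The medians of the G1 genes were -0.09 in LNCaP and 0.06 in DU145 for siTET2, 0.05 and -0.05 for miR-29b, and -0.09 and 0.03 for the control pair. Those of all genes above the floor were 0.01 and -0.01 for siTET2, 0.02 and -0.04 for miR-29b, and 0.02 and -0.03 for the control pair.

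For counts against both control arrays at once, a gene was kept where at least 1 of the line's 4 arrays had it at or above the array's median. CDK6 was kept in DU145 through its siControl and siTET2 arrays. Counts over both lines took the genes kept in both. The siTET2 value was above both controls in 1 of 8 genes and below both in 5 of 8 in LNCaP, where 33.7% and 25.9% of all genes were. In DU145 it was above both in 5 of 9 and below both in 2 of 9, where 33.0% and 43.5% of all genes were. CCND1 and CCND3 lay below both controls in both lines, 2 of 8 genes where 16.6% of 8498 genes did, and CCNE1 lay above both in both lines, 1 of 8 where 14.8% did. The miR-29b value was above both controls in 3 of 8 genes and below both in 1 of 8 in LNCaP, where 30.2% and 23.2% of all genes were, and above both in 1 of 9 and below both in 3 of 9 in DU145, where 19.8% and 37.7% were. CCNE1 lay below both controls in both lines with miR-29b, 1 of 8 where 10.5% of all genes did, and 0 of 8 lay above both, where 6.24% did. These shares of the G1 genes rest on few genes, and nothing particular to them is read from the counts.

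Known miR-29 targets among the 10 genes gave differences near 0 between miR-29b and nc. CDK6 differed from nc by 0.08 in DU145 and by 0.05 in LNCaP, and CCND2 by 0.04 in DU145 and by -0.0019 in LNCaP. All 4 of these differences are between values below the level floor. CDK6 in DU145 lay just under it, at percentiles 48.72 with nc and 49.96 with miR-29b. Each is also a difference of 2 single arrays, so they do not show that the targets were unchanged. From siControl, CDK6 with miR-29b was at -0.56 in DU145 and -0.20 in LNCaP, so its sign depended on the control array. The largest difference from nc was that of CCNE2, at 0.40 in LNCaP and 0.29 in DU145, and it was -0.14 and -0.05 from siControl. TET2, which the series title names in connection with the miRNA, was at 8.59 with miR-29b, against 9.24 with nc in LNCaP, and at 7.79 with miR-29b, against 7.96 with nc in DU145.

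The effect of a construct shared by LNCaP and DU145 was tested with limma, in an additive model of line and construct over the 8 arrays that left 3 residual degrees of freedom. The fit covered the 9209 genes whose mean reached the median of such means, and 8 of the 10 G1 genes passed this floor, CDK6 and CCND2 being left out. With siTET2, 0 of 8 passed an adjusted p of 0.05, where 0.38% of all genes tested did (32 fell and 3 rose; 0 genes in all, TET2 and CDK1 included, without the siControl array of either line or the DU145 siTET2 array, 11 without either miR-29b array, and 136 without the LNCaP siTET2 array). At an unadjusted p below 0.05 it was 1 of 8, RB1, where 13.7% of all genes were. RB1 had a common difference of -0.23 (SE 0.0946, 95% interval -0.45 to -0.01, limma adjusted p = 0.328), negative in 2 of 2 lines. Against nc its common siTET2 difference was 0.07, so the sign rested on the siControl arrays. CCND1 had -0.21 (SE 0.100, -0.44 to 0.01, limma adjusted p = 0.390) and CCND3 had -0.26 (SE 0.138, -0.58 to 0.05, limma adjusted p = 0.448), both negative in 2 of 2 lines. CCNE2 had -0.40 with the widest interval, -0.84 to 0.04 (limma adjusted p = 0.407). It was negative in 1 of 2 lines, at -0.85 in LNCaP and 0.06 in DU145. A difference in response between the lines counts as residual in this model and widens the interval. For CDK4, CCNE1, CDKN1B and CDKN2A the common differences were 0.02 to 0.12, and their intervals together spanned -0.21 to 0.40. These intervals bound the size of a common effect. They do not show that there was none. RB1 was not alone in a sign that rested on the siControl arrays. Against nc the common siTET2 differences were 0.04 for CCNE2, -0.08 for CDK4, -0.06 for CDKN1B and -0.09 for CDKN2A. CCND1 (-0.32), CCND3 (-0.36) and CCNE1 (0.16) kept their sign against nc.

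With miR-29b, 0 of 8 G1 genes passed limma's adjusted threshold, as did 0 of all 9209 genes (0.0%), and 0 of 8 had an unadjusted p below 0.05, where 3.74% of all genes did. The common differences ran from -0.09 for CCNE1 to 0.34 for CCNE2 (95% interval -0.10 to 0.78). The control pair gave the single smallest unadjusted p of the 10 genes. RB1 was higher with siControl than with nc by 0.30 (SE 0.0946, 95% interval 0.09 to 0.52, unadjusted p = 0.0115, limma adjusted p = 0.354), in 2 of 2 lines. At an unadjusted p below 0.05 this was 1 of 8 genes, where 13.2% of all genes were, and limma called 0 of 8 and 0 of 9209 (0.0%). CCNE2 lay 0.44 higher with siControl (-0.0018 to 0.88, limma adjusted p = 0.381). CDK6 and CCND2 were fitted with no floor over 18417 genes and gave 0.32 (SE 0.249, limma adjusted p = 0.782) and 0.11 (SE 0.133, limma adjusted p = 0.859) for siTET2.

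**Figure D3:**
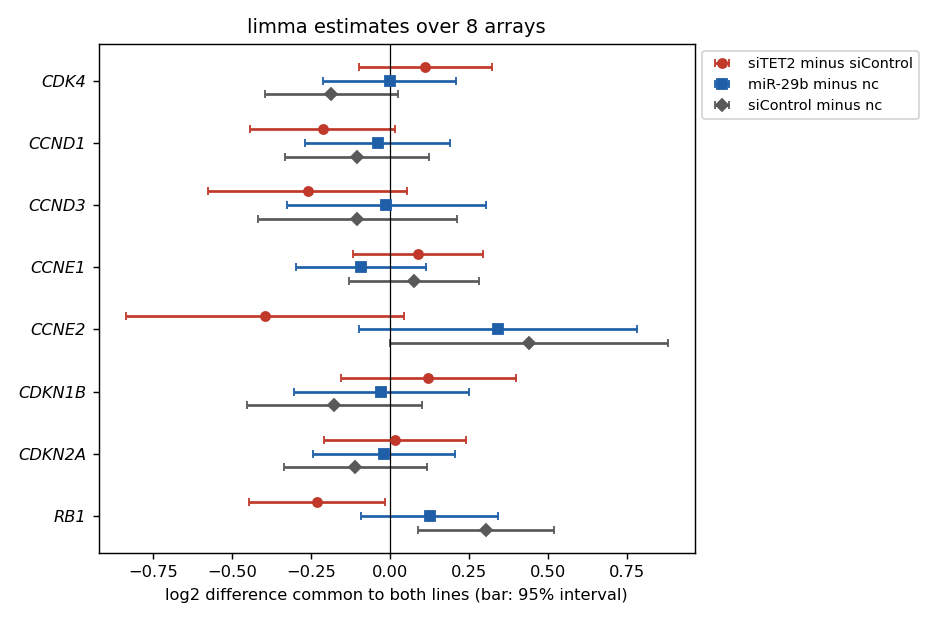
limma estimates of the log2 difference common to both lines (horizontal axis) for the 8 G1 genes above the floor, with unadjusted 95% intervals as bars. The intervals of RB1 exclude 0 for siTET2 minus siControl (-0.45 to -0.01) and for siControl minus nc (0.09 to 0.52), with limma adjusted p of 0.328 and 0.354. Both comparisons share the siControl arrays with opposite sign. Against nc, RB1 with siTET2 was at 0.07.

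The other genes of the G1/S pathway were described by lists, which were chosen with earlier results of these data known. Genes of a list can move together on an array, and the shares of all genes above and below 0 were not computed. The counts by sign are therefore a description only, and nothing particular to a list is read from them. Of 29 E2F target genes tested, 1 fell with siTET2 (CDK1, the mitotic kinase, -0.83, limma adjusted p = 0.0211) and 0 rose, where 0.38% of all genes tested were called in either direction, and all 29 common differences lay below 0, with a median of -0.36 against -0.0002 for all genes tested. In LNCaP all 29 lay below siControl, with a median of -0.56, and 13 by at least 1.5-fold, where 2.75% of all genes differed by that much in either direction. Against nc the median was -0.39. In DU145 24 of 29 lay below siControl, with a median of -0.19, and 1 by at least 1.5-fold, where 2.55% of all genes differed by that much. Against nc the median there was -0.21. Between the control arrays (siControl minus nc), 27 of 29 E2F targets lay above 0 in LNCaP, with a median of 0.17. In DU145 14 of 29 did, with a median of -0.02. From siControl, MCM10, which helps start replication forks, was at -0.87 in LNCaP and -0.27 in DU145. POLE2, a DNA polymerase subunit, was at -0.79 and -0.11, and GINS1, part of the replicative helicase, at -0.79 and -0.39. In the control pair MCM10 was at 0.21 in LNCaP and -0.08 in DU145, and POLE2 at 0.58 and 0.25. GINS1 was at 0.17 and 0.02 there, and CDK1 at 0.58 and 0.38.

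Of 18 RB family and E2F genes measured, 17 were tested, and 0 rose and 0 fell with siTET2, with 12 of 17 below 0 and a median of -0.13. E2F8, a repressing E2F factor, was at -0.89 in LNCaP and -0.18 in DU145, and the RB relative RBL1 at -0.57 and 0.12. MYBL2, a cell cycle transcription factor, was at -0.66 and 0.03, and LIN9, its partner in the MuvB complex, at -0.60 and -0.04. These differences are from siControl. In the control pair (siControl minus nc) E2F8 was at 0.59 in LNCaP and -0.04 in DU145, and RBL1 at 0.36 and 0.19. MYBL2 was at 0.08 and -0.22 there, and LIN9 at 0.37 and 0.10. With miR-29b, MYBL2 was at -0.64 in LNCaP and -0.18 in DU145.

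Among the 13 G1 partners and inhibitors tested, 0 rose and 0 fell, with 7 of 13 above 0 and a median of 0.10. CDKN1A, the p53-induced inhibitor p21, was at 0.74 in LNCaP and 0.41 in DU145 (common 0.58, SE 0.100, limma adjusted p = 0.0605). CDK2, the kinase of cyclin E, was at -0.53 and 0.05, and WEE1, a kinase that restrains CDK1, at -0.58 and 0.32. The phosphatase CDKN3 was at -0.77 and -0.27. These differences are from siControl. In the control pair (siControl minus nc) CDKN1A was at -0.13 in LNCaP and 0.08 in DU145, and CDKN3 at 0.63 and 0.10. CDK2 was at 0.20 and -0.23 there, and WEE1 at 0.15 and 0.19. In the degradation list 15 of 16 measured genes were tested and 0 rose or fell, with a median of -0.04. SKP2, which marks p27 for degradation, was at -0.54 and -0.17, and its cofactor CKS1B at -0.42 and -0.10. FBXW7, which marks cyclin E, was at 0.39 and, below the floor, 0.27. In LNCaP FBXW7 passed the floor only through siTET2, the array where it was higher, so nothing is read from that value. FBXO4, described as a factor of cyclin D1 degradation, was at -0.02 and -0.73. In the control pair SKP2 was at -0.06 in LNCaP and -0.07 in DU145, and CKS1B at 0.04 and 0.14. FBXW7, below the floor there, was at 0.23 and 0.17, and FBXO4 at 0.06 and 0.20. Among the 8 genes of the CDKN2A neighbourhood and the Polycomb group, 0 rose or fell, with a median of -0.04. The Polycomb subunits SUZ12 and EED were at -0.37 and -0.33 in LNCaP and at -0.24 and 0.08 in DU145. CBX7 was at 0.15 and 0.01, and the histone demethylase KDM6B at 0.26 and 0.29. In the control pair SUZ12 was at 0.09 in LNCaP and 0.17 in DU145, and EED at 0.29 and -0.02. CBX7 was at -0.15 and -0.05 there, and KDM6B at -0.18 and 0.01. With miR-29b, CBX7 was at 0.03 in LNCaP and -0.36 in DU145, and KDM6B at -0.38 and -0.19. With miR-29b, 0 genes of these 5 lists passed, and the list medians of the common fit lay between -0.07 and 0.12.

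**Figure D4:**
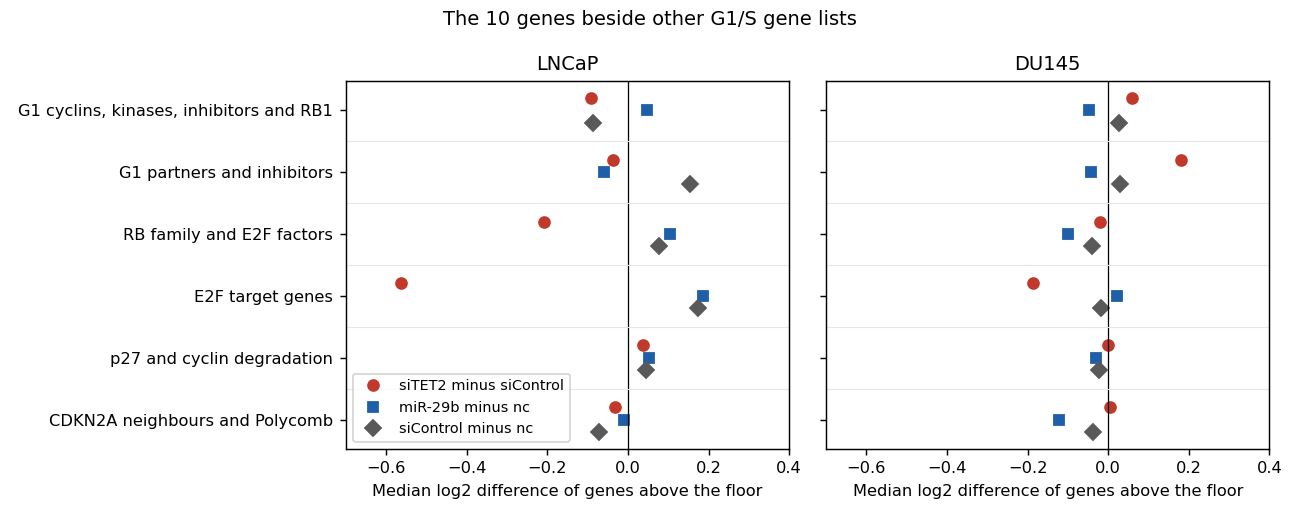
Median log2 difference (horizontal axis) of the 10 G1 genes and of 5 other G1/S lists in LNCaP (left) and DU145 (right), over genes above the level floor. The E2F targets with siTET2 lie lowest, at -0.56 in LNCaP and -0.19 in DU145, beside -0.09 and 0.06 for the G1 genes. The lists were chosen with earlier results of these data known.

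The 8 G1 genes above the common floor were also set beside one another across the 8 arrays, after the mean of each line was taken off. The pair most alike was CCND1 and CCND3 (Pearson r 0.87), then CCNE2 and RB1 (0.82), and the least alike was CDK4 and RB1 (-0.82), out of 28 pairs. Among the 9201 other genes of the fit, CCND1 was most like RECQL4 (0.98) and CASK (0.98), CCND3 like TNFRSF11A (0.98) and SETD1A (0.98), and CCNE2 like XRCC2 (0.99) and DST (0.99). RB1 was most like CDC27 (0.98) and ATG3 (0.97), CDK4 like SELENOO (0.995) and NME4 (0.98), and CCNE1 like ZNF875 (0.99) and TM2D2 (0.99). CDKN1B was most like MAST2 (0.96) and KLF5 (0.96), and CDKN2A like SLC48A1 (0.98) and ZXDB (0.98). These are the highest of 9201 values over 8 arrays that share their constructs, and they are given as a description only.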

How the data were processed

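The deposited table holds log2 expression values of 8 arrays. Per the submitters' processing notes, the authors made these log2 values with Affymetrix Expression Console and RMA; which arrays were normalized together and the log base are not given in the sources used here, and log2 is inferred from the range of the values. Gene names came from the platform annotation through Entrez identifiers and RefSeq. Of the probe sets, 19460 had 1 symbol, 1754 had several (not named) and 12083 were not listed. For a gene with several probe sets the one with the highest mean stood for it.

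The fit used limma 3.58.1 in R 4.3.3 (lmFit, eBayes, Benjamini-Hochberg adjustment). On simulated data with the same effect in both lines, it recovered 84% of siTET2 effects of 1 and 44% of those of 0.5 (log2). Effects as small as the common estimates of the G1 genes could therefore be missed. With 1 array per line and construct, the residual of the fit is how far the lines differed in their response to the constructs. The SEs and p-values therefore mix line-specific response with variation between arrays and cannot separate them. The labels name no separate cultures, so the variation between arrays may be partly technical. The members and lists were chosen with earlier results of these data known. Named genes were the 10 members, TET2, in each other list those past the fit and the 4 with the largest absolute treatment difference, and the 2 genes most like each member. Some marker and pathway genes were not analysed here. The number of arrays limits the precision.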

Additional observations from a re-analysis of the deposited data

Results flagged for a closer look

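CDK6 and CCNE2 differed between siTET2 and siControl in opposite directions in the 2 lines, by at least 1.5-fold in one of them. CDK6 was at 0.709 in DU145 and -0.0602 in LNCaP, where it lay below the level floor. Its LNCaP sign rested on the control array: against nc it was at 1.34 in DU145 and 0.19 in LNCaP, and against the mean of both controls at 1.03 and 0.07, positive in both lines. CCNE2 was at 0.0597 in DU145 and -0.852 in LNCaP, and at 0.40 and -0.32 against nc. Each value is a difference of 2 single arrays, and the difference between the lines was not tested.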

How the results depend on the processing

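Cell line was a term of the common fit, so constructs were compared within lines, and the labels give no replicate numbers for a further block. Over 16 settings of the common fit, 0 calls were made among the members each setting fitted (CDK6 and CCND2 under 2 settings, the other 8 under 13 to 15 in each comparison), with a lowest limma adjusted p of 0.0758, for CCNE2 with siTET2. The count of all genes called with siTET2 (35) was 1 with no floor, 87 with the stricter floor, 0 over all probe sets of the table, 113 with a trend and 18 with nc as the control; it ran from 0 to 136 when each array was left out in turn, with 0 without the siControl array of either line or the DU145 siTET2 array, 11 without either miR-29b array and 136 without LNCaP siTET2. Leaving out an array leaves its construct with 1 array, which is then assumed to vary like the others. The common siTET2 difference of CCNE2 ran over these settings from -0.81 to 0.04, that of RB1 from -0.32 to 0.07 and that of CCND3 from -0.48 to -0.04. Genes at least 1.5-fold apart between siTET2 and siControl were 259 in LNCaP (164 with nc as the control, 108 with the mean of both controls) and 240 in DU145 (382 with nc as the control, 399 with no floor). Between miR-29b and nc they were 80 in LNCaP (42 with the mean of both controls, 195 with no floor) and 11 in DU145 (34 with siControl as the control, 138 with no floor), and between the controls 220 in LNCaP (727 with no floor) and 32 in DU145 (126 with no floor). At 2-fold these 6 counts were 14, 32, 9, 0, 13 and 4. Of the values of single members under the alternatives, 47 changed sign by more than 1 SE in the common fit or moved within a line by more than the SD of all genes between its control arrays. The cause of these shifts was not tested. The other 538 did neither, but many of them could not move. Each member had 1 probe set, so no floor or the mean of a gene's probe sets left its value within a line unchanged. In the common fit a member's estimate was unchanged by the floor, the trend or the use of all probe sets. Leaving out an array outside the comparison also left it unchanged. The 538 are therefore no measure of stability.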
